A study of Mus musculus with 18 samples.

Results

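Glucocorticoid and fasting response genes were followed in liver and kidney of mice whose livers had been injured with D-galactosamine. The set holds 10 genes, Tsc22d3, Fkbp5, Nr3c1, Zbtb16, Klf9, Hsd11b1, Foxo1, Irs2, Lpin1 and Ddit4, of 18193 genes measured. They were named by symbol, and each is represented by 1 probe set, the one annotated to that gene alone with the highest mean over 18 arrays. All 10 passed the filter on low values in both organs.

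Male C57BL6 mice of 20 g were given 4.5 g/kg of D-galactosamine (GalN) by intraperitoneal injection, a hepatocyte poison derived from galactose. One group was examined at 24 h and another at 48 h, and the sham group received saline and was examined at 24 h. No saline group was examined at 48 h, so the later comparison with sham also differs in the time since injection. Each of the 6 groups of organ and time has 3 arrays, lettered A, B and C in the labels, 18 in all. The protocol speaks of equal amounts of RNA from individual mice, and each array is read here as 1 animal. The p-values measure the spread between these arrays only. Neither when the mice were last fed nor the hour of necropsy is given in the sources used here. Values are log2 gcRMA expression values, that is, background-corrected and normalised probe set intensities, and a difference of 1 is a factor of 2.

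Corticosterone, the main glucocorticoid of mice, binds the glucocorticoid receptor, which then moves to the nucleus and switches genes on or off. In liver this receptor works with FOXO1, a factor held out of the nucleus by insulin, to raise glucose output during fasting. Daily rhythm, stress and the time since the last meal all change the hormone and insulin, and thereby genes of this set.

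Arrays of a group correlated closely, while the actin controls differed between some arrays. Correlations between arrays of a group ran from 0.983 to 0.998 over all probe sets. The gap between the 3′ and 5′ actin control sets was 2.56 in liver 48 h C and 1.48 to 2.02 in the other 17 arrays. In sham A, B and C it was 1.56, 1.48 and 1.86 in liver and 1.82, 1.72 and 2.02 in kidney. Hepatocyte markers averaged 15.39 to 15.75 in every liver array and 6.55 to 6.67 in every kidney array, where Cps1, Arg1 and Hpx were near the lowest value. Kidney tubule markers averaged 13.25 to 13.67 in kidneys and 3.47 to 4.0 in livers. The 8 adrenal cortex markers averaged 2.34 to 2.72 in all arrays, close to the lowest value of 2.21, but in liver at 48 h 6 of the 8 were near it and Cyp21a1 averaged 4.17, against 2.26 in sham liver, at least 1.92 higher on the log2 scale (adjusted p = 0.0425, limma). In whole tissue, fewer cells of a type and less RNA per cell cannot be told apart.

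Sequence before the transcription start was searched for 8 of the 10 genes. Zbtb16 had no entry, and Nr3c1 was left out of the search. Of the windows searched, 6 are shown, each of 250 bases up to the start, 5′ to 3′ on the strand of the gene. Ddit4 and Hsd11b1 are shown because they have calls below, Fkbp5, Lpin1 and Klf9 because they spread widely among sham livers, and Tsc22d3 because its window holds a receptor arm. Foxo1, which also spread widely, holds none of the motifs searched and is not shown. Capitals mark matches on either strand to AGAACA, 1 arm of the glucocorticoid receptor's site, to GTAAACA, a FOXO site, or to the E-box CACGTG. The sequences are from RefSeq, build GRCm38.p6.
Ddit4, chr10:59951771-59952020, minus strand: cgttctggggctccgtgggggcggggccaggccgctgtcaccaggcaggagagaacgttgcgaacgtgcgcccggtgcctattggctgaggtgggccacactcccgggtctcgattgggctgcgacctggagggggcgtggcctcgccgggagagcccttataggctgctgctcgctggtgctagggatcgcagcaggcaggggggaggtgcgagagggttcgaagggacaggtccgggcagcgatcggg
Hsd11b1, chr1:193242361-193242610, minus strand: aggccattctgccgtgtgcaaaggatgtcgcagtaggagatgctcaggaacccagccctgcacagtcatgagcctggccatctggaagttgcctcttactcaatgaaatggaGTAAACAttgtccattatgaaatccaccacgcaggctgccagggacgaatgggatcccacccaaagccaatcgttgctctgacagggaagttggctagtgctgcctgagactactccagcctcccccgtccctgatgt
Fkbp5, chr17:28486150-28486399, minus strand: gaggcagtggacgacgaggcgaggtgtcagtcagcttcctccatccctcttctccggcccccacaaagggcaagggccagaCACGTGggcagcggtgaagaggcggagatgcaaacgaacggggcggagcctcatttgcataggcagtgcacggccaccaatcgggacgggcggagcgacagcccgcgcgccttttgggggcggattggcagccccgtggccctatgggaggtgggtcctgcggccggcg
Lpin1, chr12:16610967-16611216, minus strand: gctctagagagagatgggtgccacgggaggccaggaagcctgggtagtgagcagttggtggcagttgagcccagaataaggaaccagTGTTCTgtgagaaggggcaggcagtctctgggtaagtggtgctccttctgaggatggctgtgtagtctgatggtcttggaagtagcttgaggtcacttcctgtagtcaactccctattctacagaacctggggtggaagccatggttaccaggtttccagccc
Klf9, chr19:23140976-23141225, plus strand: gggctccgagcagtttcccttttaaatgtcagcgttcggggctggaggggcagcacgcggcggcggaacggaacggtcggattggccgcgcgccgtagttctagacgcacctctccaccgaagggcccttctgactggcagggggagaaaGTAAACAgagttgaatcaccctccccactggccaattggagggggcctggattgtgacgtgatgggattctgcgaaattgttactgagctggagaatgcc
Tsc22d3, chrX:140600523-140600772, minus strand: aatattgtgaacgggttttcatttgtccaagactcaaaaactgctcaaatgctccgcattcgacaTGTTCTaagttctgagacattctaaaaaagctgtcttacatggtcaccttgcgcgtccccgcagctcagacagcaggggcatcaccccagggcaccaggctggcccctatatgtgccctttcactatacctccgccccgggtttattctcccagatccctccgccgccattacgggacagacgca

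The Hsd11b1 window holds the FOXO letters 138 bases before the start, and the Klf9 window holds them 100 bases before it. The Lpin1 and Tsc22d3 windows each hold the letters of the receptor arm, read on the opposite strand, at 163 and 185 bases before the start. Fkbp5 holds an E-box at 169 bases, and the Ddit4 window holds none of the 3 motifs. The Irs2 window, not shown, holds an E-box at 44 bases. For Hsd11b1 and Lpin1 the start used lies inside the span annotated to the gene and not at its outer end. Tsc22d3 has 3 annotated starts, and only the window shown has a match. Over 32851 promoters of this length, 16.1% hold the receptor arm, 3.17% the FOXO letters and 6.02% the E-box. No window of the 8 genes holds a pair of receptor arms 3 bases apart, an arrangement found in 3 of all these promoters.

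**Figure D1:**
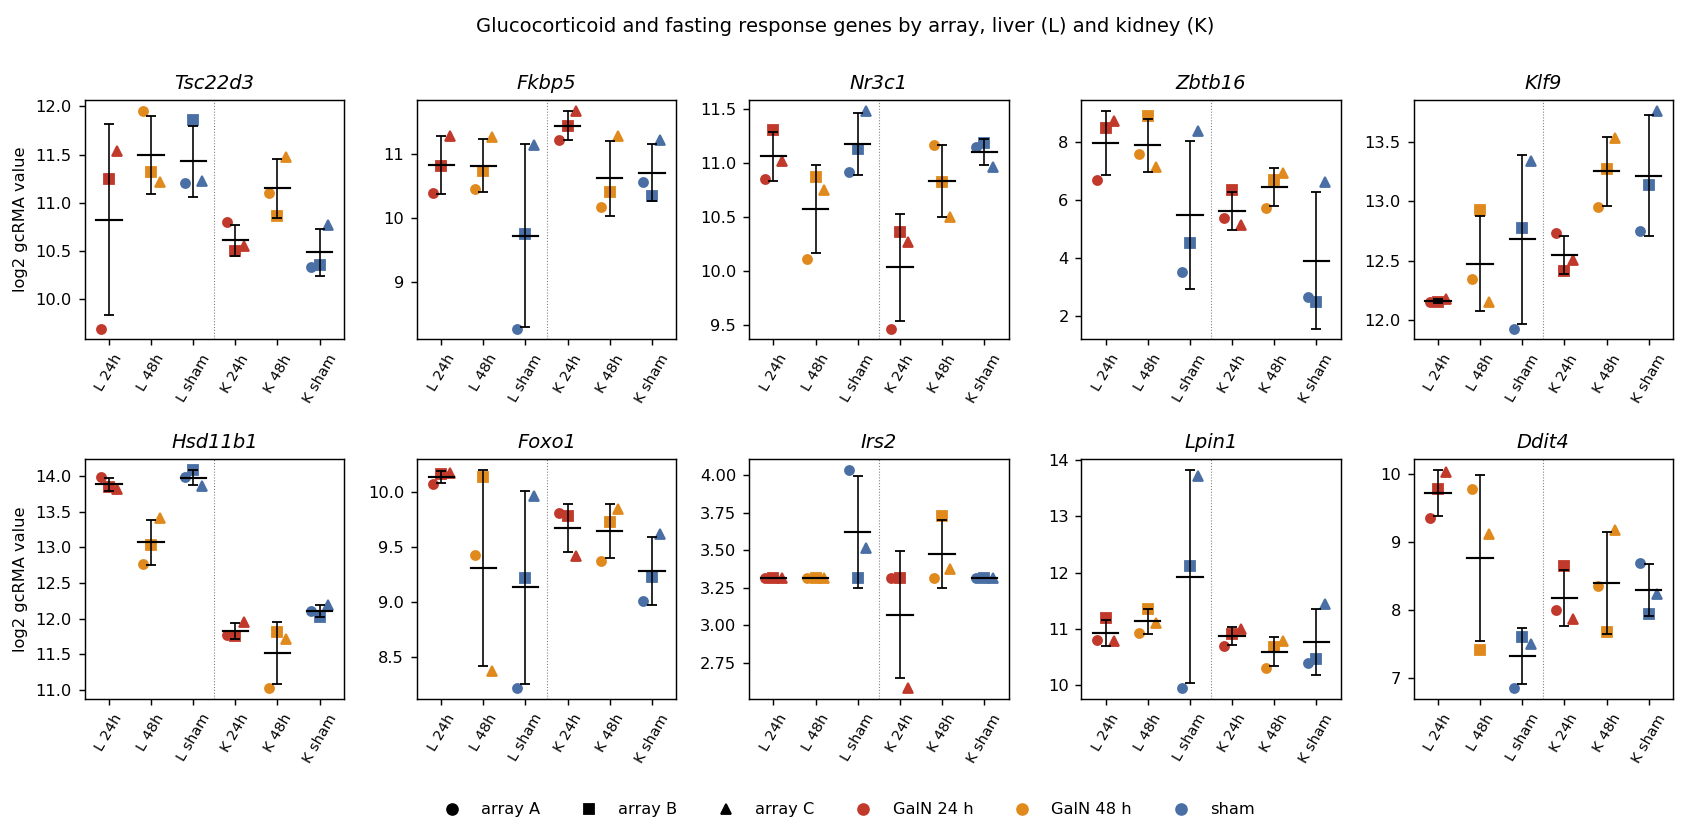
Log2 gcRMA values (vertical axis) of the 10 genes in liver (L) and kidney (K) at 24 h, 48 h and in sham, with 1 point per array, the letter given by its shape, and the bar and whiskers for the group mean ± SD (n = 3). The 3 liver 24 h arrays of Ddit4 lie above all sham livers, the 3 liver 48 h arrays of Hsd11b1 lie below all sham livers, and the sham arrays of Zbtb16, Lpin1 and Fkbp5 lie far apart.

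The first question was what the injured liver showed at 24 h. Ddit4 rose, and it was the only gene of the 10 called against sham liver by limma. Across all genes tested 32.9% were called in this comparison, so 1 call among 10 genes is fewer than the share over the array. The median log2 difference of the 10 genes was -0.10. The rank product test named in the study's design called 4 of the 10, with Ddit4, Fkbp5 and Zbtb16 higher and Lpin1 lower, where it called 24.3% of all genes.

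Ddit4, also called REDD1, restrains the growth kinase complex mTORC1 and is induced by glucocorticoids, low oxygen and other stress. Its log2 values were 9.35, 9.77 and 10.02 in liver 24 h A, B and C, against 6.86, 7.61 and 7.50 in sham liver A, B and C. All 3 GalN livers lay above all 3 sham livers. The log2 difference was 2.39 ± 0.58 (SE, n = 3 per group), a 5.25-fold higher level (adjusted p = 0.0178, limma). The call rests on few arrays, since leaving out 24 h B gave 2.36 (adjusted p = 0.0518), leaving out 24 h C gave 2.24 (adjusted p = 0.061) and leaving out sham A gave 2.16 (adjusted p = 0.0598). At 48 h the liver values were 9.77, 7.41 and 9.12, so array B was at the sham level while A and C were not. The difference from sham was then 1.45 ± 0.58 (adjusted p = 0.172), and leaving out 48 h B gave 2.12 (adjusted p = 0.0248). Against 24 h, the 48 h livers differed by -0.95 ± 0.58 (adjusted p = 0.276), while the rank product test called this difference (adjusted p = 0.0344), as it did 22.4% of all genes.

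In kidney, Ddit4 read 8.0, 8.65 and 7.87 at 24 h and 8.35, 7.67 and 9.17 at 48 h, against 8.69, 7.94 and 8.23 in sham. These groups overlapped, with differences of -0.11 ± 0.41 at 24 h and 0.11 ± 0.41 at 48 h. The kidney minus liver difference of the response at 24 h was -2.51 ± 0.72, so the response in liver exceeded that in kidney by a factor of 5.69 (adjusted p = 0.0175). In that comparison 30.3% of all genes were called, and Ddit4 was the only one of the 10. It was called under all 27 alternatives, with adjusted p between 0.00283 and 0.0448. At 48 h the same difference was -1.34 ± 0.72 (adjusted p = 0.267), with 13.1% of all genes called and none of the 10. Without liver 48 h B it was -2.01 (adjusted p = 0.0301).

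**Figure D2:**
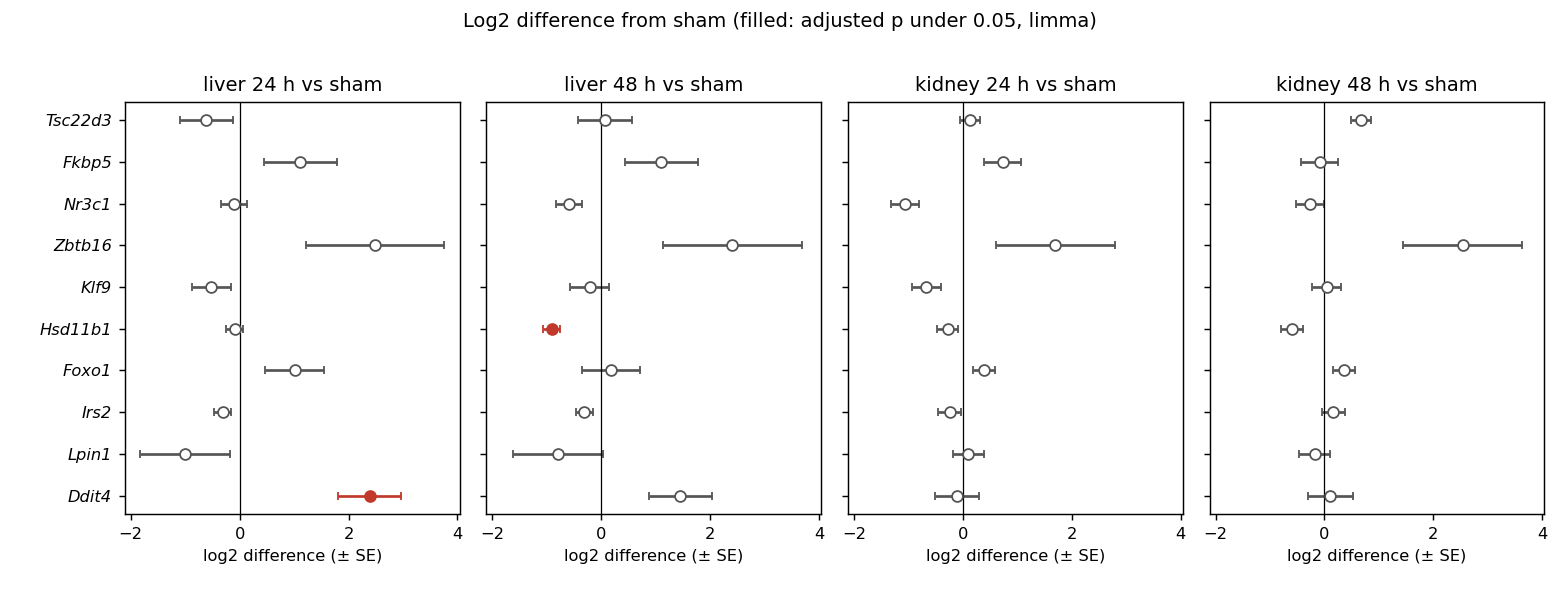
Log2 difference from sham (horizontal axis, ± SE) for each of the 10 genes in liver and kidney at 24 h and 48 h, with filled points for adjusted p under 0.05 (limma). Ddit4 in liver at 24 h (2.39) and Hsd11b1 in liver at 48 h (-0.91) are the filled points, and the SE of Zbtb16 is the widest in every panel.

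The second question was what the liver showed at 48 h. Hsd11b1 fell, and it was the only one of the 10 genes called by limma, where 10.2% of all genes were called, so the share in the set was near that over the array. Hsd11b1 encodes 11β-hydroxysteroid dehydrogenase type 1, which regenerates active corticosterone from its inert 11-keto form inside cells and is abundant in hepatocytes. Its log2 values were 12.77, 13.03 and 13.41 at 48 h, against 13.99, 14.08 and 13.87 in sham liver. All 3 arrays at 48 h were below all sham arrays. The log2 difference was -0.91 ± 0.16 (SE, n = 3 per group; adjusted p = 0.0161, limma), 1.88-fold lower. Without sham B the difference was -0.86 (adjusted p = 0.063), and with only the 6 arrays compared in the fit the adjusted p was 0.0562. The rank product test called 5 of the 10 at 48 h, with Hsd11b1 and Lpin1 lower and Ddit4, Fkbp5 and Zbtb16 higher, where it called 17.8% of all genes.

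The 24 h livers had not shown this fall. Hsd11b1 read 13.99, 13.84 and 13.82 there, a difference of -0.09 ± 0.16 from sham (adjusted p = 0.706). The change between the times was itself tested: 48 h livers were 0.82 lower on the log2 scale than 24 h livers (-0.82 ± 0.16, adjusted p = 0.00866), and no array of one group reached the other. This call held whichever array was left out, with adjusted p between 0.00219 and 0.0305, while the rank product test gave 0.1. Of all genes, 27.8% were called between 48 h and 24 h liver, and Hsd11b1 was again the only one of the 10 by limma.

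Kidney Hsd11b1 was 11.76, 11.76 and 11.96 at 24 h and 11.03, 11.81 and 11.71 at 48 h, against 12.10, 12.02 and 12.19 in sham. Both GalN groups lay below sham without overlap. The differences of -0.28 ± 0.20 (adjusted p = 0.451) and -0.59 ± 0.20 (adjusted p = 0.166) did not pass by limma. Array A was the lowest at 48 h in both organs. The response at 48 h did not differ between kidney and liver by a called amount (0.32 ± 0.26, adjusted p = 0.483). Sham kidney was 1.87 below sham liver on the log2 scale (-1.87 ± 0.18, adjusted p = 7.25e-07), a 3.67-fold lower level. It was the only gene of the set called there, among 47.6% of all genes.

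Cell type markers also differed between these liver groups. Of all genes, 32.9% were called at 24 h and 10.2% at 48 h. At 24 h the shares of 22.2% for hepatocyte and 30% for stellate cell and fibroblast markers were not above that. The endothelial share at 48 h, 10%, was near the share over all genes. Of 9 macrophage markers measured, 6 were higher at 24 h and 3 at 48 h, and the mean level of the list was 9.92 to 10.28 at 24 h and 9.47 to 9.90 at 48 h, against 7.93 to 9.05 in sham livers. Of 10 endothelial markers, 6 were higher at 24 h and 1 at 48 h, with list means of 6.59 to 7.68 and 6.18 to 6.56, against 5.74 to 5.77. Hepatocyte markers were lower for 2 of 9 at 24 h and 4 of 9 at 48 h, with list means of 15.47 to 15.55 and 15.39 to 15.58, against 15.73 to 15.75. Of 10 stellate cell and fibroblast markers, 3 were higher at 24 h (Dcn, Lrat and Pdgfrb) and none at 48 h, with list means of 8.02 to 8.28 and 7.28 to 8.62, against 7.09 to 7.77. Of 2 erythroid markers tested, only Alas2 was called, lower at 24 h (-0.65, adjusted p = 0.0294) and 48 h (-1.70, adjusted p = 0.00479). The part of these cells in the changes of Ddit4 and Hsd11b1 was not tested.

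The third result concerns the sham mice themselves. Zbtb16, Lpin1, Fkbp5, Foxo1 and Klf9 differed widely between the 3 sham livers, and none of these genes was called against sham in either organ by limma. The widest was Zbtb16, which encodes PLZF, a zinc finger repressor strongly induced by glucocorticoids in many cells. Its log2 values were 6.71, 8.48 and 8.76 in liver at 24 h and 7.62, 8.93 and 7.15 at 48 h, against 3.55, 4.53 and 8.40 in sham liver. Sham C lay among the GalN livers, and sham A and B lay far below all of them. The same held in kidney, where the values were 5.40, 6.36 and 5.14 at 24 h and 5.73, 6.71 and 6.95 at 48 h, against 2.67, 2.48 and 6.64 in sham. The readings of kidney sham A and B are within 1 log2 unit of the lowest value of the array, so kidney differences for this gene are lower bounds.

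Sham C exceeded sham A for Zbtb16 by 4.85 log2 units in liver, 28.8-fold, and by at least 3.97 in kidney, at least 15.7-fold. The SD over sham arrays was 2.56 in liver and 2.35 in kidney. Among 12071 genes tested in liver, the SD of Zbtb16 was at percentile 99.9, where the median SD was 0.193, and in kidney it was at percentile 100 of 12003 genes. Against sham, the differences were 2.49 ± 1.27 (adjusted p = 0.181) in liver at 24 h and 2.41 ± 1.27 (adjusted p = 0.292) at 48 h. Kidney gave 1.70 ± 1.09 (adjusted p = 0.397) and 2.54 ± 1.09 (adjusted p = 0.264). Without sham C, Zbtb16 was called higher in liver at 24 h (3.94, adjusted p = 0.016), in kidney at 24 h (3.06, adjusted p = 0.0468) and in kidney at 48 h (3.89, adjusted p = 0.0313). In liver at 48 h it was 3.86 without sham C (adjusted p = 0.0527). Without sham A the liver differences were smaller, 1.52 at 24 h (adjusted p = 0.434) and 1.43 at 48 h (adjusted p = 0.556). In kidney at 24 h the difference was 1.07 without sham A (adjusted p = 0.662) and 0.98 without sham B (adjusted p = 0.706).

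The probe sets of Zbtb16 did not read alike. The set used is of the x_at class, whose probes can match other transcripts, and its liver 24 h A reading recurs exactly in kidney 48 h B. A second set gave 2.53 and 2.4 in liver at 24 h and 48 h, with 2 of the 6 arrays of each comparison near the lowest value, and -0.08 and 0.88 in kidney. The remaining set gave 0.09 and 0.18 in liver and -0.27 and -0.12 in kidney.

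Fkbp5 encodes FKBP51, a co-chaperone that lowers the hormone affinity of the glucocorticoid receptor and is itself induced by it. Its log2 values were 10.38, 10.82 and 11.28 in liver at 24 h and 10.44, 10.74 and 11.26 at 48 h, against 8.27, 9.75 and 11.13 in sham liver. Sham A and B were below every GalN liver, and sham C was among them. The differences were 1.11 ± 0.67 (adjusted p = 0.259) and 1.10 ± 0.67 (adjusted p = 0.369). Without sham C the 24 h difference was 1.81 (adjusted p = 0.0434) and the 48 h difference was 1.80 (adjusted p = 0.11). Without sham A they were 0.38 (adjusted p = 0.62) and 0.37 (adjusted p = 0.706). A second Fkbp5 set gave 2.03 and 1.96, and the remaining set was near the lowest value in all arrays of these comparisons.

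Lpin1 encodes lipin 1, a phosphatidate phosphatase and coactivator of fasting genes that glucocorticoids induce in liver. Its log2 values were 10.80, 11.20 and 10.77 in liver at 24 h and 10.93, 11.36 and 11.10 at 48 h, against 9.94, 12.12 and 13.72 in sham liver. The 6 GalN livers lay within a narrow band that the sham livers spanned, with sham A below it and sham B and C above it. The differences of -1.0 ± 0.83 (adjusted p = 0.406) and -0.80 ± 0.83 (adjusted p = 0.608) depended on single sham arrays. Without sham A they were -2.0 (adjusted p = 0.0232) and -1.79 (adjusted p = 0.0717), and without sham C they were -0.11 (adjusted p = 0.952) and 0.10 (adjusted p = 0.987). In kidney the values were 10.68, 10.90 and 11 at 24 h and 10.29, 10.68 and 10.78 at 48 h, against 10.39, 10.46 and 11.43 in sham, and the groups overlapped.

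Foxo1 read 10.07, 10.17 and 10.17 in liver at 24 h and 9.42, 10.13 and 8.36 at 48 h, against 8.21, 9.22 and 9.96 in sham liver. All 3 arrays at 24 h were above all sham arrays, with a difference of 1.01 ± 0.54 (adjusted p = 0.205). Without sham A it was 0.55 (adjusted p = 0.487). At 48 h the lowest array was C, whose actin gap stands apart, and the difference was 0.18 ± 0.54 (adjusted p = 0.904), or 0.65 without that array (adjusted p = 0.464). The other sets of Foxo1 gave 0.35, 0.75 and 0.00 at 24 h, the last near the lowest value throughout. Kidney Foxo1 was 9.81, 9.78 and 9.42 at 24 h and 9.37, 9.72 and 9.84 at 48 h, against 9.0, 9.22 and 9.62 in sham, with overlap.

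Klf9, a zinc finger factor induced by glucocorticoid and thyroid hormone, read 12.15, 12.15 and 12.17 in liver at 24 h and 12.35, 12.92 and 12.15 at 48 h, against 11.93, 12.77 and 13.34 in sham liver. In the set used, the 24 h arrays were almost equal and lay between sham A and sham B. Their difference from sham was -0.52 ± 0.36 (adjusted p = 0.316), -0.90 without sham A (adjusted p = 0.0521) and -0.19 without sham C (adjusted p = 0.715). The other sets of Klf9 gave -0.04, -0.50, -0.76, 0.09, -0.30 and 0.00 in that comparison, the last near the lowest value throughout. In kidney the values were 12.73, 12.41 and 12.50 at 24 h and 12.95, 13.27 and 13.53 at 48 h, against 12.75, 13.13 and 13.76 in sham. Every kidney at 24 h was below every sham kidney, array A by a small margin. The difference of -0.67 ± 0.27 did not pass by limma (adjusted p = 0.187). Without sham C it was -0.39 (adjusted p = 0.335).

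The spread followed one order in part. That order, A lowest and C highest, is the one seen in these same sham values. The counts set beside all genes therefore describe it and do not test it. In liver, 6 of the 10 genes were lowest in sham A and highest in sham C, against 24.6% of 11662 genes tested in both organs. In kidney 4 of the 10 had this order, against 15.8% of all genes. Klf9, Foxo1 and Lpin1 had it in both organs, where 6.16% of all genes did. Sham C was above sham A in both organs for 6 of the 10 genes, against 24% of all genes. The gap was 1.42 and 1.02 log2 units for Klf9 in liver and kidney, 1.75 and 0.61 for Foxo1, 3.78 and 1.04 for Lpin1, and 2.86 and 0.64 for Fkbp5. Sham C also had the widest actin gap of its sham group in both organs, and the part of RNA quality in this order was not tested. Whether a letter marks the same mouse in both organs is not stated in the labels.

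Related genes fixed as lists for this report were read for the same order, also as a description. Sham C exceeded sham A in both organs for 11 of 18 other receptor targets and for 11 of 20 fasting and FOXO1 target genes, against 24% of all genes. In these 2 lists, 5 and 3 genes were lowest in A and highest in C in both organs, against 6.16% of all genes. Among the receptor targets, Mt2 and Bcl6 are given here, chosen after their values were seen. Mt2, a metallothionein, was 6.33, 6.77 and 11.50 in sham liver A, B and C and 9.28, 9.77 and 10.43 in sham kidney. Bcl6, a repressor, ran the other way, at 11.25, 8.44 and 8.0 in sham liver and 11.28, 8.60 and 8.12 in sham kidney.

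**Figure D3:**
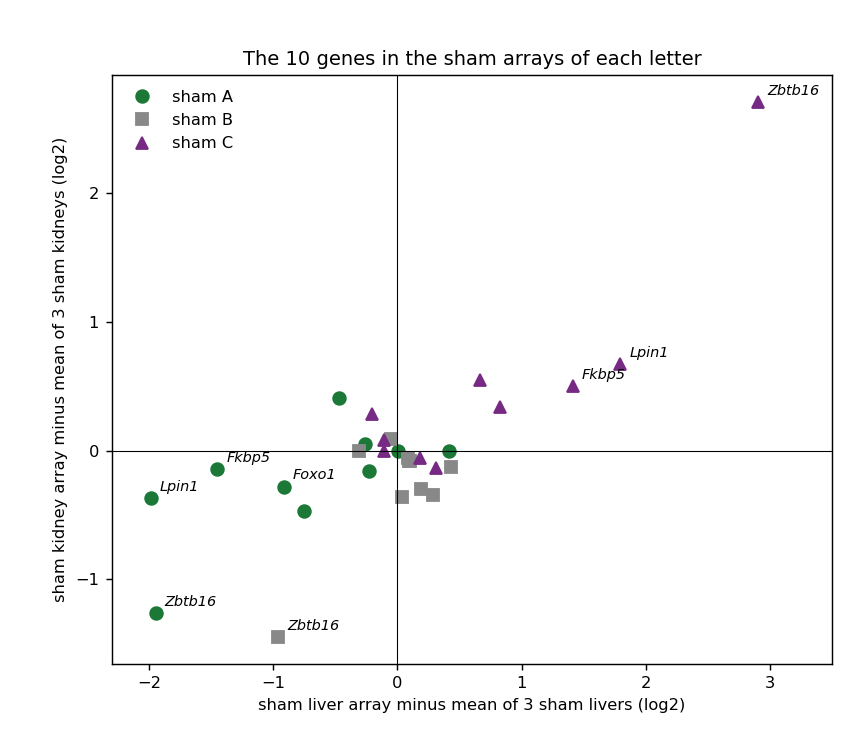
Deviation of each of the 10 genes from its sham mean (log2) in a sham liver array (horizontal axis) and in the sham kidney array of the same letter (vertical axis), with A as circles, B as squares and C as triangles. Zbtb16, Lpin1 and Fkbp5 lie high in both organs in sham C and low in both in sham A.

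The remaining genes of the set showed no called change against sham in liver. Nr3c1, the glucocorticoid receptor gene itself, read 10.86, 11.31 and 11.02 at 24 h and 10.11, 10.87 and 10.75 at 48 h, against 10.91, 11.13 and 11.48 in sham liver. In the set used, the 3 arrays at 48 h were below all sham arrays, with a difference of -0.60 ± 0.24 (adjusted p = 0.177). The other Nr3c1 sets gave -1.64, -0.62, -1.30, -0.60 and -0.65 in that comparison, the fourth of them with 4 of 6 arrays near the lowest value. The set with -1.64 read 7.55, 7.06 and 2.89 at 48 h, against 7.18, 7.60 and 7.65 in sham liver, so its size rests on 48 h C, the array whose actin gap stands apart. In the sets with -0.62 and -0.65, 48 h B was above sham A, so the groups overlapped. In both of them 48 h C was the lowest array. Tsc22d3, or GILZ, an anti-inflammatory target of the receptor, was 9.69, 11.25 and 11.53 at 24 h and 11.96, 11.32 and 11.21 at 48 h, against 11.20, 11.86 and 11.23 in sham liver. One 24 h array, A, was low and the others overlapped sham, giving -0.61 ± 0.49 (adjusted p = 0.397). The other Tsc22d3 sets gave -0.03, -0.19 and 0.00 in liver at 24 h, the last near the lowest value throughout.

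Irs2, an insulin receptor substrate that rises on fasting, was not measured usefully by its only set. Its value was 3.32 in 13 of 18 arrays, a recurring background reading, and it spanned 2.58 to 4.03 overall. Its differences have no reliable size, and the gene is not discussed further.

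The fourth question was what the kidney showed. None of the 10 genes was called by limma at 24 h, where 5.31% of all genes were, or at 48 h, where 2.69% were, or between the times, where 1.61% were. At an unadjusted p under 0.05 (limma), 2, 2 and 4 of the 10 genes passed in these comparisons, where 23.8%, 19.4% and 18.3% of all genes did, so the first 2 counts are near the background. The rank product test, whose ratios share arrays, called 4, 3 and 5 of them, where it called 17.6%, 17.4% and 14.8% of all genes. At 24 h these were Fkbp5 and Zbtb16, higher than sham, and Nr3c1 and Klf9, lower. At 48 h they were Tsc22d3 and Zbtb16, higher than sham, and Hsd11b1, lower. Between the times, Fkbp5 was lower at 48 h, and Tsc22d3, Nr3c1, Zbtb16 and Klf9 were higher.

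Kidney Nr3c1 came nearest. It read 9.47, 10.36 and 10.27 at 24 h and 11.17, 10.83 and 10.50 at 48 h, against 11.15, 11.18 and 10.96 in sham. All 3 kidneys at 24 h were below all sham kidneys, with a difference of -1.06 ± 0.26 (adjusted p = 0.0672). It was called under 6 of the alternatives tried, among them a stricter filter (adjusted p = 0.0482) and the mean of its sets (-0.46, adjusted p = 0.0482). The other sets gave -0.38, -0.45, -0.13, -0.16 and -0.59, smaller in size than the set used. The 48 h kidneys lay above the 24 h kidneys without overlap (0.80 ± 0.26, adjusted p = 0.181). The kidney minus liver difference of the 24 h response was -0.95 ± 0.37 (adjusted p = 0.0661). It was called without kidney 24 h B (-1.11, adjusted p = 0.0466), without liver sham C (-1.10, adjusted p = 0.0469) and without liver 48 h A (-0.95, adjusted p = 0.0476).

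Kidney Tsc22d3 was 10.79, 10.49 and 10.54 at 24 h and 11.10, 10.86 and 11.48 at 48 h, against 10.32, 10.35 and 10.77 in sham. Its 48 h arrays were above all arrays of the other groups. The difference was 0.67 ± 0.19 from sham (adjusted p = 0.111) and 0.54 ± 0.19 from 24 h (adjusted p = 0.203). A second set gave 0.65 from sham and 0.24 from 24 h, and another, with a mean of 5.34 at 48 h, gave 0.03 and 0.02. The remaining set was near the lowest value throughout.

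Kidney Fkbp5 was 11.21, 11.43 and 11.67 at 24 h and 10.16, 10.41 and 11.28 at 48 h, against 10.56, 10.34 and 11.21 in sham. The 24 h arrays lay just above all sham arrays (0.73 ± 0.34, adjusted p = 0.243). At 48 h the difference from 24 h was -0.82 ± 0.34 (adjusted p = 0.258). A second Fkbp5 set gave 1.29 for 24 h against sham, 0.11 for 48 h against sham and -1.18 for 48 h against 24 h. The remaining set was near the lowest value throughout. Klf9 differed the other way between the times, by 0.71 ± 0.27 (adjusted p = 0.228). Adipocyte markers varied among kidneys within groups, with list means of 4.47 to 7.39 at 24 h, 4.44 to 7.58 at 48 h and 4.86 to 6.77 in sham, and their part in these values was not tested.

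In sham mice the other 9 genes had no called difference between the organs, although some differed in size. Zbtb16 was at least 2.96-fold lower in kidney (adjusted p = 0.323) and Lpin1 2.24-fold lower (adjusted p = 0.154). Fkbp5 was 1.98-fold higher in kidney (adjusted p = 0.158), and the organs overlapped for each of these genes. Tsc22d3 was 0.95 lower in kidney on the log2 scale without overlap (-0.95 ± 0.38, adjusted p = 0.055), and it was called without liver 24 h A (adjusted p = 0.00445) or C (adjusted p = 0.036), which enter that fit through the spread. Ddit4 was 0.97 ± 0.51 higher in kidney without overlap (adjusted p = 0.142), and was called without liver 48 h B (adjusted p = 0.046). Leaving out sham liver C gave calls for Fkbp5 (1.70, adjusted p = 0.00747) and Klf9 (0.87, adjusted p = 0.0366), and leaving out sham liver A gave one for Lpin1 (-2.16, adjusted p = 5.33e-04).

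Genes of the pathways around the set were described from 8 lists, set beside the share of all genes called, which was 32.9% in liver at 24 h, 10.2% in liver at 48 h, 5.31% in kidney at 24 h and 2.69% in kidney at 48 h. Of 19 other glucocorticoid receptor targets tested in liver at 24 h, 2 rose and 2 fell, 21.1% of the list against 32.9% of all genes, and 15 did not pass. Glul, glutamine synthetase, fell by 1.54 to 12.29 ± 0.40, against 13.84 ± 0.07 in sham (SD, n = 3, adjusted p = 0.00321). Tdo2, tryptophan dioxygenase, fell by 0.97 (adjusted p = 0.0233), and Fam107a rose by 1.66 (adjusted p = 0.0186), a lower bound. At 48 h only Rgs2, a regulator of G protein signalling, was called (1.91 higher, adjusted p = 0.0268). In kidney 0 of 18 were called at 24 h, and at 48 h Glul rose by 0.61 (adjusted p = 0.025). The medians of the list were -0.21 and -0.16 in liver and 0.03 and 0.45 in kidney at 24 h and 48 h, against 0.00 to 0.03 over all genes.

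Of 11 receptor chaperones and coregulators tested, 2 rose and 3 fell in liver at 24 h, 45.5% against 32.9% of all genes, and none passed at 48 h. Nrip1, a corepressor, rose by 1.71 (adjusted p = 0.00325), Fkbp4, a co-chaperone of the receptor, fell by 1.02 (adjusted p = 0.0128), and Ppargc1a, a coactivator of gluconeogenic genes, fell by 2.61 (adjusted p = 0.0194). In kidney Ncoa2, a coactivator, was the only call, at 24 h (-0.47, adjusted p = 0.0299). Of 8 genes of corticosteroid metabolism and binding, 1 rose and 3 fell in liver at 24 h, 50% against 32.9% of all genes, and 1 rose and 1 fell at 48 h. Serpina6, which encodes the corticosteroid-binding globulin of plasma, fell by 1.78 at 24 h (adjusted p = 0.0013) and by 1.61 at 48 h (adjusted p = 0.00886). Abcb1b, a drug and steroid efflux pump, rose by 1.98 (adjusted p = 5.08e-04) and 1.68 (adjusted p = 0.0054). In kidney Akr1d1, a steroid reductase, fell at 24 h (-1.58, adjusted p = 0.0167), and Hsd11b2, which inactivates corticosterone, rose at 48 h (0.69, adjusted p = 0.039).

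The fasting and FOXO1 target list had the largest median difference of the 8 lists in liver at 24 h. In liver at 24 h, 10 of 20 genes fell and 1 rose, where 32.9% of all genes were called, and the median was -1.15. Cpt1a, which admits fatty acids to mitochondria, was 10.17 ± 0.40 at 24 h, against 12.15 ± 0.18 in sham (SD, n = 3, adjusted p = 0.0014). Sesn3, a sestrin that restrains mTORC1, fell by 1.85 (adjusted p = 5.83e-04) and Klf15, a factor for amino acid breakdown, by 1.89 (adjusted p = 0.0041). By 48 h, 3 rose and 2 fell against sham, among them Pdk4, which spares glucose, higher by 3.6 as a lower bound (adjusted p = 0.00661), and Ccng2, a cyclin induced by FOXO factors, by 1.14 (adjusted p = 0.00941). Between 48 h and 24 h liver 9 of 20 rose and none fell, where 27.8% of all genes were called, with a median of 1.39. Cpt1a was then 2.67 higher at 48 h (adjusted p = 7.17e-04), and G6pc, the last enzyme of glucose release, was 12.13 ± 0.70 at 48 h, against 4.94 ± 2.62 at 24 h. In kidney 0 of 20 were called at 24 h and Igfbp1, a binding protein of insulin-like growth factors that insulin represses, rose by 1.59 at 48 h (adjusted p = 0.033). For the kidney minus liver response at 24 h, 10 of the 20 were called positive, none was called negative and 10 were not called, where 30.3% of all genes were called. Foxo1 itself, described above, was not called in either organ.

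Insulin receptor signalling had 2 genes higher and 6 lower of 14 in liver at 24 h, 57.1% against 32.9% of all genes, and none called at 48 h. Grb14, an adaptor that inhibits the insulin receptor, fell by 2.45 (adjusted p = 1.37e-04), while its relative Grb10 rose by 2.55 (adjusted p = 8.26e-04). The list of lipin partners and phosphatidate enzymes had 4 lower and none higher of 11 at 24 h, 36.4% against 32.9%, and none called at 48 h. Dgat1, an acyltransferase of triglyceride synthesis, fell by 2.98 (adjusted p = 0.00139) and Agpat2, which makes phosphatidate, by 1.81 (adjusted p = 0.00325). In kidney Pik3ca, a catalytic subunit of the kinase below the insulin receptor, fell at 24 h (-1.16, adjusted p = 0.0254), and no lipin partner was called.

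Around Ddit4, 5 of 16 genes listed under mTORC1 restraint and energy stress rose and 5 fell in liver at 24 h, 62.5% against 32.9% of all genes. The list also holds Mtor, Rptor and Rheb, which are not restraints, so its counts do not give a direction of restraint. Ddit4l, the paralogue of Ddit4, rose by 3.74 as a lower bound (adjusted p = 7.35e-04) and was lower at 48 h than at 24 h (-4.07, adjusted p = 7.58e-04). Rheb, the activator of mTORC1, rose by 0.89 (adjusted p = 0.00104), and Sesn3, also in the fasting list, fell. At 48 h 2 fell, Sesn3 and Tsc1, part of the brake on Rheb (-1.27, adjusted p = 0.0461). In kidney 1 rose and 2 fell at 24 h, and 1 rose and 1 fell at 48 h, the riser being Sesn2 (1.21, adjusted p = 0.0314). Among 18 relatives of Klf9, Zbtb16, Fkbp5 and Tsc22d3, 4 rose and 3 fell in liver at 24 h, 38.9% against 32.9%. Klf6, a stress-induced zinc finger factor, rose by 3.05 (adjusted p = 0.00236) and Klf12, a repressor, fell by 3.86 (adjusted p = 0.0119). Klf6 was still higher at 48 h (2.12, adjusted p = 0.0287), and none of the 18 was called in kidney against sham.

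**Figure D4:**
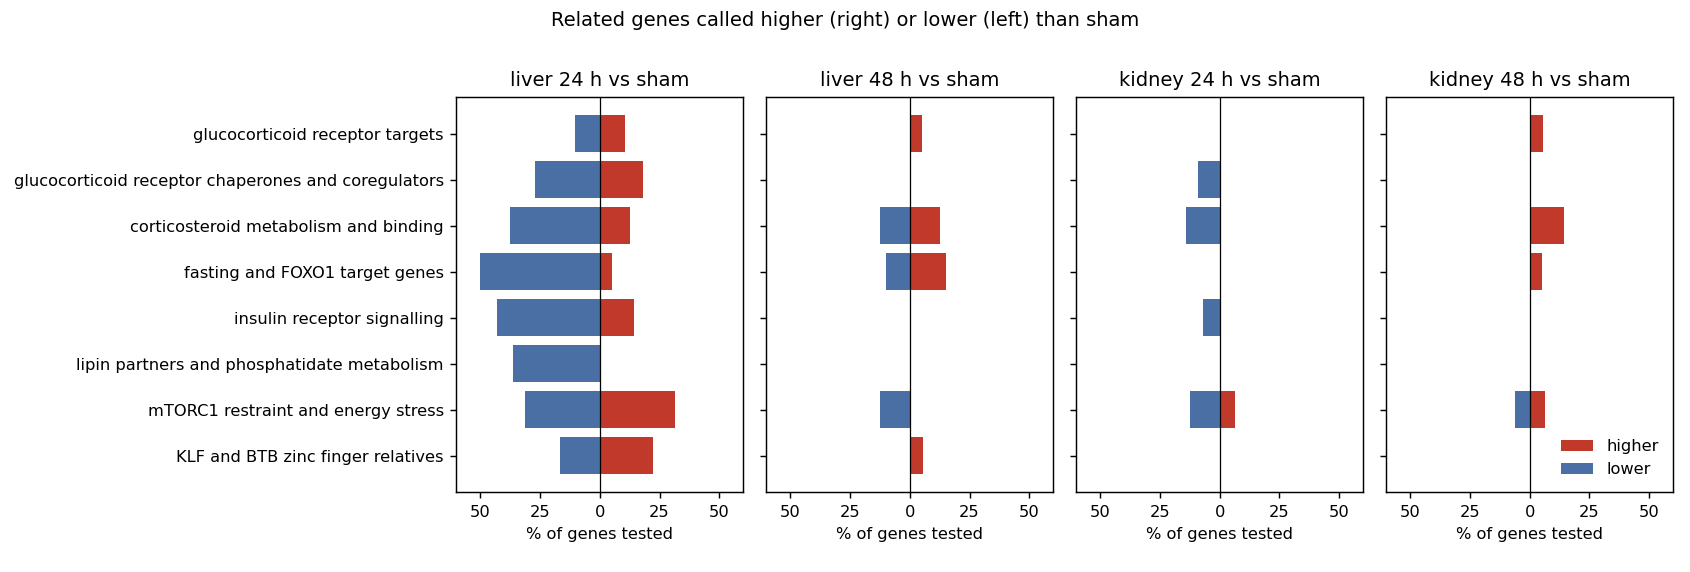
Share of the tested genes of each related list (horizontal axis, %) called higher than sham (red, right) or lower than sham (blue, left) in liver and kidney at 24 h and 48 h (limma, adjusted p under 0.05). The fasting and FOXO1 target genes have the longest bar, 10 of 20 genes lower in liver at 24 h, and the kidney panels hold few calls.

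The patterns of the 10 genes over the 18 arrays, each centred on its organ mean, are given as Pearson correlations without a test, since arrays of a group share treatment and normalisation. Within the set the closest pairs were Zbtb16 with Foxo1 (0.72), Fkbp5 with Zbtb16 (0.71) and Klf9 with Lpin1 (0.68). Among 11662 genes the nearest to Foxo1 were Med13l (0.91) and Hipk1 (0.90), to Klf9 Rsbn1 (0.91) and Zhx3 (0.88), and to Fkbp5 Mertk (0.88) and Pex11a (0.85). Lpin1 was most like Atat1 and Foxl2 (0.87 each), and Zbtb16 most like Lonrf3 and Spen (0.81 each). Hsd11b1 was nearest to Tm7sf2 (0.88) and Afm (0.86), Nr3c1 to Wasl (0.88) and Grsf1 (0.87), Ddit4 to Asf1a and Rad1 (0.84 each), and Tsc22d3 to Fn3krp (0.85) and Herpud1 (0.81).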

How the data were processed

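RNA of each organ was measured on Affymetrix mouse arrays. The authors made the deposited log2 expression values with affy and GCRMA, per the labels' design text, and no array was normalised again here. Of 45101 probe sets, 34945 name 1 gene, 932 several and 9160 none in the platform annotation, and 64 are controls. One set stands for each gene. Genes above the array median, taken without controls, in at least 3 arrays were tested in R 4.3.3 by limma 3.58.1, whose variance prior followed intensity, with Benjamini-Hochberg adjustment over all genes and a threshold of 0.05. Each organ was fitted on its 9 arrays, and organ differences on all 18. The fit was tested on simulated data. A reading within 1 of the lowest value makes a fold a lower bound. Alternatives were other filters, scalings and variance models, the mean of sets, array weights, blocks, single arrays left out, and rank product on 9 ratios with 100 permutations, the authors' named test. The ratios share arrays, which the permutations do not take into account. From each list up to 3 called genes per comparison with the smallest p are named. The 10 genes and the lists were chosen with earlier results of these data known. Gene lists hold some genes in more than 1 list.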

Additional observations from a re-analysis of the deposited data

Results flagged for a closer look

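Ddit4 differed between the organs in its response at 24 h by the test of that difference (kidney minus liver -2.51 ± 0.72 on the log2 scale, adjusted p = 0.0175, limma). The GalN livers were higher than sham in 3 of 3 arrays, and the kidney groups overlapped. Hsd11b1 differed between the times in liver, where 48 h minus 24 h was -0.82 ± 0.16 (adjusted p = 0.00866, limma) with all 3 arrays at 48 h below all 3 at 24 h.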

How the results depend on the processing

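Directions and calls were recomputed for 90 values, the 10 genes in 9 comparisons. Of 2064 alternative values, 1930 kept direction and side of the threshold, 63 passed it newly, 7 lost it and 64 changed sign. The sign changes touched 25 of the 90 values, with adjusted p of at least 0.384, and none of the called ones. The cause of the changes below was not tested. The number of called genes in liver at 24 h (1) was 2 with array weights and 4 by rank product (Ddit4, Fkbp5, Zbtb16 higher, Lpin1 lower), and 0 to 3 with 1 array left out. In liver at 48 h (1) it was 4 with array weights, 5 by rank product, 0 with only the 6 arrays compared, and 0 to 2 with 1 array left out. Between 48 h and 24 h liver (1) it was 2 with array weights, and by rank product it was 1, Ddit4 in place of Hsd11b1. In kidney at 24 h (0) it was 1, Nr3c1, with 18 arrays in 1 fit, array weights, a common 75th percentile, a filter at percentile 60 or the mean of sets, 4 by rank product, and 0 to 1 with 1 array left out. In kidney at 48 h (0) it was 1 with array weights, 3 by rank product and 0 to 1 with 1 array left out, and between the times (0) it was 5 by rank product. The kidney minus liver response at 24 h (1) had 2 with array weights or quantile normalisation and 1 to 2 with 1 array left out, and at 48 h (0) it had 2 with array weights and 0 to 1 with 1 array left out. Sham kidney against sham liver (1) had 4 with array weights or a common 75th percentile, 2 with a filter at percentile 60, quantile normalisation or robust empirical Bayes, and 1 to 3 with 1 array left out.

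Sign changes of values not called in the reported fits follow. Quantile normalisation gave Nr3c1 0.01 (liver 24 h against sham) and Foxo1 0.02 (kidney 48 h against 24 h). A common 75th percentile gave Tsc22d3 -0.01 (liver 48 h against sham), Fkbp5 0.07 (liver 48 h against 24 h), Foxo1 0.02 (kidney 48 h against 24 h) and Foxo1 -0.24 (sham kidney against sham liver). The mean of the sets gave Fkbp5 0.01 (kidney 48 h against sham), Zbtb16 -0.56 (kidney minus liver response at 48 h) and Foxo1 -0.01 (sham kidney against sham liver). Array weights gave Ddit4 -0.02 (kidney 48 h against sham), Foxo1 0.07 (kidney 48 h against 24 h) and Irs2 -0.33 (kidney minus liver response at 24 h). For liver 24 h against sham, leaving out 1 array put Nr3c1 between -0.24 and 0.04. For liver 48 h against sham, leaving out 1 array put Tsc22d3 between -0.16 and 0.28, Klf9 between -0.58 and 0.13, Foxo1 between -0.28 and 0.65 and Lpin1 between -1.79 and 0.10. For liver 48 h against 24 h, leaving out 1 array put Fkbp5 between -0.23 and 0.21 and Zbtb16 between -0.72 and 0.30. For kidney 24 h against sham, leaving out 1 array put Lpin1 between -0.08 and 0.44 and Ddit4 between -0.35 and 0.09. For kidney 48 h against sham, leaving out 1 array put Fkbp5 between -0.42 and 0.16, Klf9 between -0.20 and 0.31, Lpin1 between -0.36 and 0.16 and Ddit4 between -0.28 and 0.47. For kidney 48 h against 24 h, leaving out 1 array put Foxo1 between -0.15 and 0.11 and Ddit4 between -0.16 and 0.59. For kidney minus liver response at 24 h, leaving out 1 array put Fkbp5 between -1.08 and 0.35, Zbtb16 between -2.24 and 0.57, Klf9 between -0.48 and 0.23 and Irs2 between -0.15 and 0.31. For kidney minus liver response at 48 h, leaving out 1 array put Zbtb16 between -1.32 and 1.48, Klf9 between -0.09 and 0.62, Foxo1 between -0.28 and 0.64 and Lpin1 between -0.27 and 1.62. For sham kidney against sham liver, leaving out 1 array put Nr3c1 between -0.21 and 0.08 and Foxo1 between -0.31 and 0.57.

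The letters A to C were checked as a pairing. Deviations from group means correlated between liver and kidney of the same letter by 0.242, 0.035 and 0.274 in sham, -0.019, 0.022 and -0.072 at 24 h, and 0.013, 0.09 and 0.074 at 48 h, so not every pair passed 0.1 and the letter was not taken as a pairing. In sham, the same-letter values of A and C were the largest, a hint from the data and not the design. Liver A with kidney C gave -0.256 and liver C with kidney A -0.243. Deviations within a group sum to 0, so these negative values are tied to the same-letter ones and add no separate evidence. With the letter as a block, 0 of the 10 genes were called in liver at 48 h (Hsd11b1 adjusted p = 0.0557), and the sham organ comparison had 3 (Hsd11b1, Klf9, Zbtb16). The block left the other 7 counts as they were.

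With 3 arrays a group, the number of arrays limits the precision. Irs2 was near background in most arrays.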

Other observations

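The order of the sham arrays in the other lists is given as counts. Sham C was above sham A in both organs for 24% of all genes. Among 18 relatives of the KLF, BTB, FKBP and TSC22 families this held for 9. Their gap in liver, in either direction, exceeded 1 log2 unit for 44.4%, against 8.82% of all genes. Of 16 genes listed under mTORC1 restraint and energy stress, 6 had sham C above sham A in both organs. In that list 8 were lowest in A and highest in C in sham liver, 6 in sham kidney and 4 in both. Of all genes, 24.6%, 15.8% and 6.16% had this order. Of 7 genes of corticosteroid metabolism and binding, 1 had sham C above sham A in both organs, and of 11 lipin partners 2 did. Of 11 receptor chaperones and coregulators 4 did, and of 14 insulin receptor signalling genes 5 did.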
